A study of Mus musculus with 10 samples.

Results

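The interleukin and chemokine receptor genes were followed in peak lists of open chromatin from mouse bone marrow progenitors. The members are the protein-coding genes of the RefSeq table for GRCm38 whose symbol is Ccr or Cxcr with a number, or Il with a number and r, except Ccr2, Ccr7, Il2ra, Il2rb and Il7r. This gave 52 of 21631 genes. A region belonged to a member when its midpoint lay in that gene, or when the member was the nearest gene within 100 kb. Of 103446 regions in all, 343 were assigned to 48 of the 52 genes. The other 4 genes, Cxcr6, Il11ra2, Il13ra2 and Il17rb, had no region. One member, Il1rn, encodes a secreted antagonist of the IL-1 receptor and fits the rule by its symbol alone.

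Lineage-negative cells were isolated with a lineage depletion kit from the marrow of C57BL/6 mice, and 100000 cells per library were treated with the Tn5 transposase, which inserts adapters into open chromatin (ATAC-seq). The 4 genotypes were wild type (WT), Npm1c (Npm1flox-cA/+;Mx1-Cre+), Flt3-ITD (Flt3ITD/+) and the double mutant DM (Npm1flox-cA/+;Flt3ITD/+;Mx1-Cre+), with 2 libraries each. Npm1c is the cytoplasmic form of nucleophosmin and Flt3-ITD an internal tandem duplication of the Flt3 receptor kinase, both known from acute myeloid leukaemia. Mx1-Cre, an interferon-inducible recombinase, is named only for the Npm1c and DM animals, so its presence and the Npm1c allele cannot be told apart. The series calls the replicates biological, but the labels used here name no animal, age or sex. Another 2 samples, WT neutrophils, were not analysed here.

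Interleukin receptors pair a ligand-binding chain with a shared signalling chain: the beta common chain serves IL-3 and IL-5, the gamma common chain IL-4, IL-9, IL-15 and IL-21, and gp130 IL-6 and its relatives, all through Janus kinases and STAT factors. Receptors of the IL-1 and IL-17 families signal instead through adaptors to NF-kappaB. Chemokine receptors couple to G proteins and direct migration. In marrow Cxcr4 holds stem and progenitor cells near Cxcl12-producing stroma, while Cxcr2 favours the release of neutrophils. Many other members are best known from mature mast cells, eosinophils, monocytes or lymphocytes.

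Promoter sequences, taken here as the 250 bases before an annotated start (RefSeq, GRCm38.p6), were at hand for 43 of the 52 genes. An overlapping peak was listed in all 8 libraries for 17 genes (39.5%, against 50.5% of 17274 genes), in none for 17 (39.5%, against 38.9%) and in some libraries for 9. The 6 promoters printed here are shown because a peak there was listed in both libraries of at least one genotype and in neither of another. Il5ra (chr6:106749038-106749287, minus strand), the IL-5 receptor chain of eosinophils, was called in both WT and both Npm1c libraries and in no Flt3-ITD or DM library. Il1rl2 (chr1:40324339-40324588, plus strand), the IL-36 receptor, was called in the same 4 libraries and in DM replicate 2. Il1rl1 (chr1:40429320-40429569, plus strand), the IL-33 receptor of mast cells, and Il9r (chr11:32200280-32200529, minus strand), the IL-9 receptor, were called in 6 libraries and in neither DM library. Il18r1 (chr1:40465756-40466005, plus strand), the IL-18 receptor, was called in 6 libraries and in neither Npm1c library; of its 3 annotated starts this is the one with a motif match. Il1rn (chr2:24345041-24345290, plus strand) was called in WT replicate 1 and in both Npm1c and both DM libraries, but in neither Flt3-ITD library. The strands read 5′ to 3′ as transcribed, and capitals mark motif matches on either strand:
Il5ra: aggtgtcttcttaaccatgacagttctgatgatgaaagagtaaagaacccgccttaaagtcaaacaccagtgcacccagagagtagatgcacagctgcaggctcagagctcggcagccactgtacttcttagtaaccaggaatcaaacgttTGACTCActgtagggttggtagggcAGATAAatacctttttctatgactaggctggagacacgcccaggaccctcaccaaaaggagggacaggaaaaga
Il1rl2: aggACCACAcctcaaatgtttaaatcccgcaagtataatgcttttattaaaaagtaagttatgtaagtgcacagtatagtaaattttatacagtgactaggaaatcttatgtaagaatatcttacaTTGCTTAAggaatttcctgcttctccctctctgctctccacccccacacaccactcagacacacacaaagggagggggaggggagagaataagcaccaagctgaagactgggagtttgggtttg
Il1rl1: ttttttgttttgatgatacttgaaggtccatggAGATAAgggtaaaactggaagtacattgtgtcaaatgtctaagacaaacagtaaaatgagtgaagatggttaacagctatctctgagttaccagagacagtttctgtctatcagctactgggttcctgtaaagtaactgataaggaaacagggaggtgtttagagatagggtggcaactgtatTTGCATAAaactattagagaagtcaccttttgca
Il9r: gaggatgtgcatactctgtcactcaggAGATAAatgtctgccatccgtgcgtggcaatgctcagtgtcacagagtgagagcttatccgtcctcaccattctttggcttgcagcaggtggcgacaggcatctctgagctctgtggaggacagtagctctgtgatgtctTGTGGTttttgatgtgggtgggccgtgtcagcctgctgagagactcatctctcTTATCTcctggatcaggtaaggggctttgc
Il18r1: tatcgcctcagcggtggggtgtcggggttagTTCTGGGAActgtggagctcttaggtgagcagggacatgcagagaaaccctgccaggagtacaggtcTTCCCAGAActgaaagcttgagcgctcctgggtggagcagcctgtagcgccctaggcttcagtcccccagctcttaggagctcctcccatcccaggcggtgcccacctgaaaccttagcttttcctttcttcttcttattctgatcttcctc
Il1rn: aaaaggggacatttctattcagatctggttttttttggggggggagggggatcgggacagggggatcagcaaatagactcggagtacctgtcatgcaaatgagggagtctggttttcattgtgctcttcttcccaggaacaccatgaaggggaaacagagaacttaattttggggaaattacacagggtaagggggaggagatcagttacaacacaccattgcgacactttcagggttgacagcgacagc

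The motifs searched were AGGAAGT for ETS factors, TGTGGT for RUNX, AGATAA for GATA, TTGCNNAA for C/EBP, TGANTCA for AP-1 and TTCNNNGAA for STAT. Among the printed windows, Il5ra held an AP-1 and a GATA match, Il1rl2 a RUNX and a C/EBP match, Il1rl1 a GATA and a C/EBP match, and Il9r a RUNX match between 2 GATA matches. Il18r1 held 2 STAT matches and Il1rn none of the 6 motifs. Over the 52 promoter windows of members, GATA letters stood in 21.2% (8.84% of all 21045 windows), AP-1 letters in 17.3% (6.17%) and RUNX letters in 19.2% (12.2%). ETS letters stood in 15.4% (7.35%), C/EBP letters in 13.5% (9.18%) and STAT letters in 9.62% (6.64%). A match describes the letters and is no evidence of binding.

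Peak lists held between 43825 peaks (Flt3-ITD replicate 1) and 80916 peaks (WT replicate 1), and the number of reads behind each is unknown. A list gives a peak's position only, so a region is called or not called in a library. Of the 8 progenitor marker genes, 7 had a region called in all 8 libraries (Kit, Cd34, Gata2, Meis1, Runx1, Spi1 and Myb). Calls for the progenitor markers numbered 131 and 88 in the WT pair, 94 and 105 in the Npm1c pair, 66 and 75 in the Flt3-ITD pair, and 75 and 89 in the DM pair. For 3 of the 8 they were lower with the Flt3-ITD allele at an unadjusted exact permutation p under 0.05, as were 17.8% of all genes. The part of these shifts in the receptor losses was not tested. Among markers of other cells, Ly6g, Cd3g, Cd79a and Fcer1a had no region. These are bulk samples, so fewer cells of a type and less open chromatin per cell cannot be told apart.

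The member regions were like other regions in breadth of use. Their median width was 444 bp against 435 bp over all regions, 85 (24.8%) were called in all 8 libraries against 25.3%, and 62 (18.1%) in 1 library against 18.5%. At least 1 region was called in all 8 libraries for 36 of the 48 genes with a region. Of the 343 regions, 172 (50.1%) lay inside a gene by their midpoint, against 59.6% of all regions, and 27 (7.87%) overlapped a promoter window, against 9.87%. The promoter regions were called in all 8 libraries for 18 of 27 (66.7%), the other member regions for 21.2%. Member regions called in every library were also wider, with a median of 802 bp against 381 bp for the rest. Exons and introns were not assigned, and a region may act on a neighbour of the gene it went to.

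Fewest member regions were called in the Flt3-ITD libraries. The WT libraries had 263 and 185 of the 343, the Npm1c libraries 188 and 215, the Flt3-ITD libraries 140 and 160, and the DM libraries 192 and 235. As a share of members this was 76.7% and 53.9% in the WT pair, 54.8% and 62.7% in the Npm1c pair, 40.8% and 46.6% in the Flt3-ITD pair, and 56.0% and 68.5% in the DM pair. Over all regions the same libraries called 75.4% and 58.2%, 57.0% and 63.1%, 38.7% and 46.0%, and 50.4% and 58.0%. Both DM libraries called a larger share of receptor regions than of all regions. WT replicate 2 called a smaller share (53.9%, against 58.2%), and in the other libraries the shares lay closer together. With every list held to its widest 43794 peaks, DM called 63.6% and 66.9% of 242 member regions, against 57.1% and 57.8% of 72476 regions. The other 6 libraries then called 52.1% to 60.3% of members and 55.3% to 58.6% of all regions. Among these 6 the gap was widest in WT replicate 2 (52.1%, against 57.5%).

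**Figure D1:**
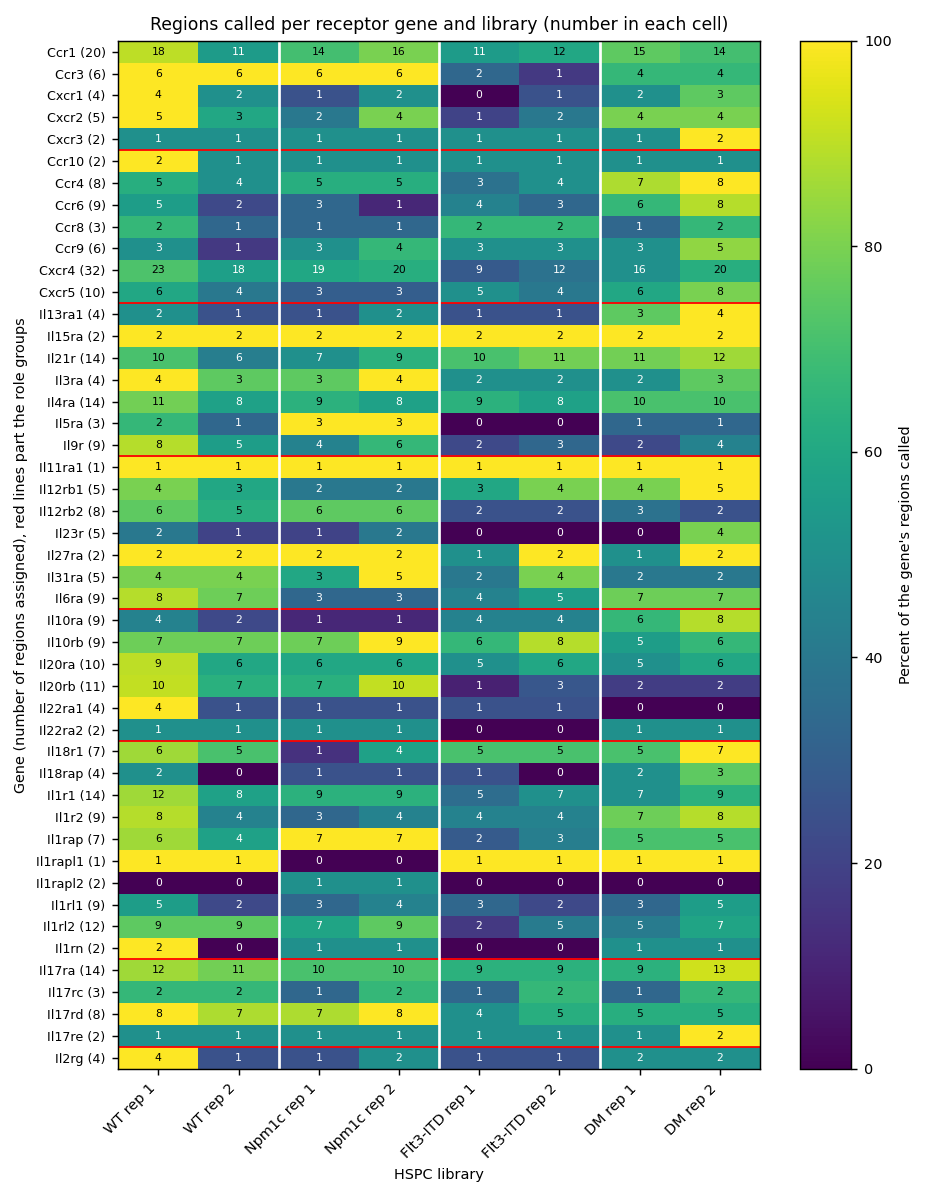
Number of regions called for 47 receptor genes with a region (rows, with the number assigned in brackets, grouped by role) in the 8 libraries (columns), coloured by the percent of the gene's regions called. Il20rb, Ccr3 and Il12rb2 are darker in all 4 libraries that carry the Flt3-ITD allele, and Ccr4, Ccr6, Il10ra and Il13ra1 are brightest in the DM libraries.

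A region counted as gained in one genotype when both of its libraries and neither library of the other had a peak there, and as lost in the opposite case. With 2 libraries against 2, the lowest exact p is 0.333, so these counts carry no test and are set beside the share over all 103446 regions. In Npm1c against WT, 7 receptor regions were gained (2.04%, against 2.71% of all regions) and 13 were lost (3.79%, against 6.26%). In Flt3-ITD against WT, 2 were gained (0.583%, against 0.852%) and 49 were lost (14.3%, against 16.2%). In DM against WT, 23 were gained (6.71%, against 6.93%) and 52 were lost (15.2%, against 20.9%). The mutant comparisons share the WT libraries. Against Npm1c, DM gained 53 (15.5%, against 12.6%) and lost 51 (14.9%, against 19.3%). Against Flt3-ITD, DM gained 47 (13.7%, against 10.6%) and lost 8 (2.33%, against 3.44%).

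Several of these counts rose when a library was left out. Leaving out a library loosens the rule, so by construction a count can stay or rise but not fall. The shares over all regions without that library are not given here. Without WT replicate 1, the longest list, the gains against WT became 25 in Npm1c, 25 in Flt3-ITD and 71 in DM. Without WT replicate 2, the losses became 59 in Npm1c and 99 in Flt3-ITD. Without Npm1c replicate 1 or 2 the Npm1c gains became 16 or 11, and without Npm1c replicate 2 the losses became 28. Without Flt3-ITD replicate 1, 5 regions were gained against WT and DM lost 23 against Flt3-ITD. Without DM replicate 1, the DM gains were 53 against WT, 91 against Npm1c and 96 against Flt3-ITD, and the losses against Flt3-ITD 13. In 12 receptor regions (3.5%, against 1.67% of all regions), a peak was listed in WT replicate 1 and both DM libraries and nowhere else.

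**Figure D2:**
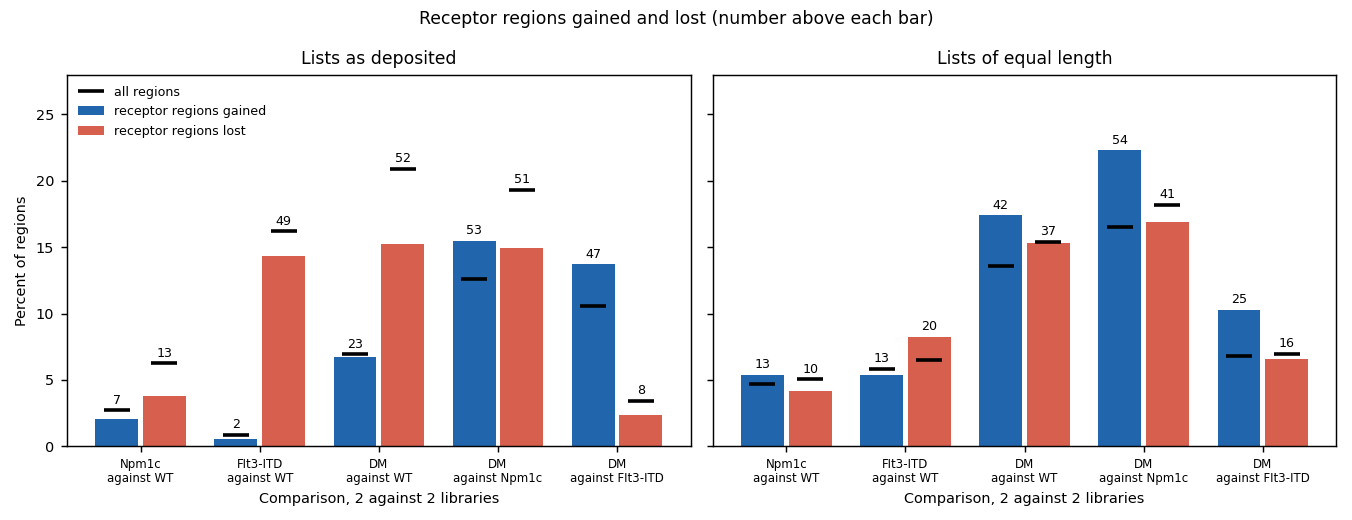
Percent of receptor regions gained (blue) and lost (red) in 5 comparisons of 2 against 2 libraries, from the lists as deposited (left, 343 regions) and from lists of equal length (right, 242 regions); black marks give the percent over all regions and numbers above the bars count receptor regions. In both panels the blue bars of DM against Npm1c and DM against Flt3-ITD stand above their marks.

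Lists of equal length moved the balance. Flt3-ITD against WT then gained 13 receptor regions (5.37%, against 5.85%) and lost 20 (8.26%, against 6.49%), and Npm1c against WT gained 13 (5.37%, against 4.72%). In DM, 42 were gained against WT (17.4%, against 13.6%), and against Flt3-ITD 25 were gained (10.3%, against 6.81%) and 16 lost (6.61%, against 6.97%). Losses in DM against WT then numbered 37 (15.3%, against 15.4%), so the order of losses and gains turned over there: 52 lost and 23 gained in the deposited lists, 37 lost and 42 gained at equal length. In Flt3-ITD it was 49 lost and 2 gained in the deposited lists and 20 and 13 at equal length.

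Both alleles were crossed, so each was also compared over 4 libraries with and 4 without it. Receptor regions called in all 4 libraries without and in none with the Flt3-ITD allele numbered 23 in 16 genes (6.71%, against 8.38% of all regions). The reverse held for 2 regions, at Il21r and Cxcr5 (0.583%, against 0.566%). Leaving out a library can only keep or raise such counts, and without WT replicate 1 the latter was 9. At equal length the counts were 12 (4.96%, against 3.89%) and 9 (3.72%, against 3.99%). For the Npm1c allele no receptor region was split in this way in either direction, where 0.156% of all regions were called only with it and 0.204% only without it. At equal length 2 were called only with the Npm1c allele (0.826%, against 0.265%), and without WT replicate 1 there were 4. For the counts without that library, shares over all regions are not given here. Fisher's exact test (two-sided, adjusted over all regions) gave p = 0.0286 and an adjusted p of 0.32 for a complete Flt3-ITD split, and 0 regions passed an adjusted p of 0.05 for either allele. Of the 23 regions, 8 lay inside genes, 1 overlapped a promoter window (that of Il5ra) and 11 lay more than 10 kb from the gene.

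Counted per gene, no receptor gene passed the exact permutation test of called regions (two-sided, 70 relabellings, adjusted over 16617 genes), and neither did any other gene (0% for both alleles). At an unadjusted p under 0.05, 4 of 48 receptor genes were lower with the Flt3-ITD allele (8.33%, against 17.8% of all genes) and 0 were higher (against 0.74%). These were Il20rb, Ccr3, Il12rb2 and Il17rd, each with an exact permutation p of 0.0286, the lowest the design allows, and an adjusted p of 0.154. Without DM replicate 2 there were 8 such genes (16.7%, against 16.8% of all genes). At equal length 3 of 47 receptor genes were lower (6.38%, against 7.62% of 15725 genes) and 6 higher (12.8%, against 6.88%). For the Npm1c allele the count was 0 in both directions, against 0.445% of all genes higher and 0.734% lower; without WT replicate 1 it was 4 higher (8.33%, against 2.85%). The median receptor gene differed by -0.5 called regions with the Flt3-ITD allele, as did the median over all genes, and by 0.25 with the Npm1c allele, where the median over all genes was 0.

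The 6 inflammatory chemokine receptor genes had 45 regions, of which 9 (20%, against 16.2% of all regions) were lost in Flt3-ITD against WT and 10 (22.2%, against 10.6%) were gained in DM against Flt3-ITD. Calls in the group were 38 and 26 in the WT pair, 30 and 34 in the Npm1c pair, 18 and 19 in the Flt3-ITD pair, and 30 and 31 in the DM pair. Ccr3 is the eotaxin receptor of eosinophils and basophils. All 6 of its regions were called in each WT and each Npm1c library, 2 and 1 in the Flt3-ITD pair and 4 and 4 in the DM pair. The groups did not overlap (mean 6 ± 0 SD without and 2.75 ± 1.5 with the allele, n = 4 each, exact permutation p = 0.0286, adjusted p = 0.154). At equal length the difference shrank from -3.25 to -1 region. A pair of regions before its start, chr9:124015202-124015467 and chr9:124016002-124016457, was absent from all 4 libraries with the allele. Another pair past the far end of the gene, chr9:124033312-124033736 and chr9:124053462-124054054, was absent from Flt3-ITD alone and called again in both DM libraries. The annotated promoter of Ccr3 was called in no library.

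Ccr1, a receptor for Ccl3 and Ccl5 on myeloid cells, had 20 regions, with 18 and 11 called in the WT pair, 14 and 16 in the Npm1c pair, 11 and 12 in the Flt3-ITD pair, and 15 and 14 in the DM pair. Its promoter region, chr9:123968399-123968939, was called in all 8 libraries. So were 7 other regions, 6 of them in a dense stretch between chr9:123922993 and chr9:123932670 that begins 36561 bp from the start of the gene and may serve a neighbour. Inside that stretch 1 region of 1326 bp, chr9:123929794-123931119, was called in every library except the DM pair. The regions chr9:123940736-123941010 and chr9:123949473-123949763 showed the opposite pattern and were called in the DM pair alone. Between these 2, chr9:123947914-123948207 was called in the 4 libraries without the Flt3-ITD allele alone. The ranges with and without the Flt3-ITD allele overlapped, and at equal length the difference turned from -1.75 to 0.5.

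**Figure D3:**
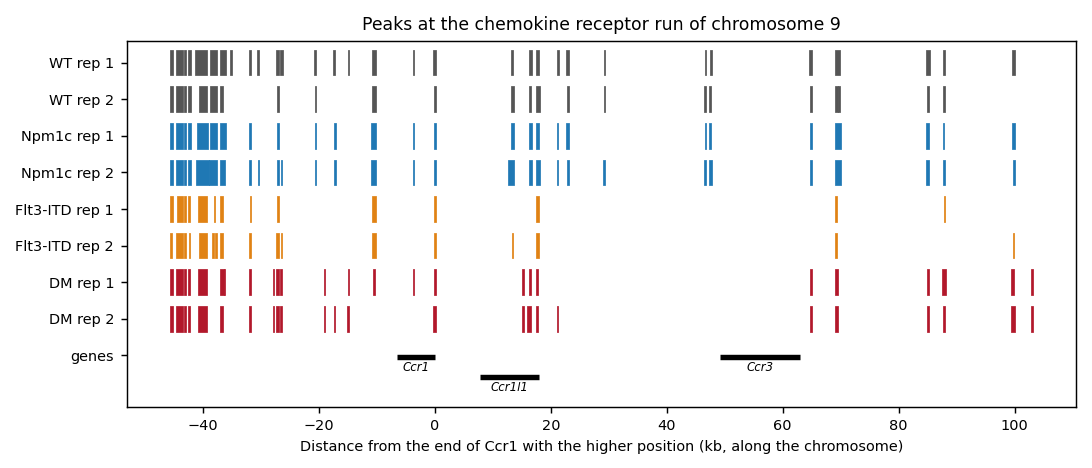
Peaks of the 8 libraries (rows, coloured by genotype) along the chemokine receptor run of chromosome 9, by distance in kb from the end of Ccr1 with the higher position; black bars are genes, among them Ccr1l1, which is not a member. Peaks around Ccr3 are fewer in the 2 Flt3-ITD rows, and the dense stretch on the left is listed in all 8 rows.

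Cxcr2, the neutrophil receptor for Cxcl1 and Cxcl2, had 5 regions, with 5 and 3 called in the WT pair, 2 and 4 in the Npm1c pair, 1 and 2 in the Flt3-ITD pair, and 4 and 4 in the DM pair. Its neighbour Cxcr1 had 4 regions, with 4 and 2, 1 and 2, 0 and 1, and 2 and 3 called in the same order. No region of this pair was called in all 8 libraries. A region between the genes, chr1:74172740-74173037, was called in the 4 libraries without the Flt3-ITD allele alone. For both genes the groups overlapped (p = 0.629 for Cxcr2 and p = 0.6 for Cxcr1, exact permutation test). Markers of mature neutrophils, 4 of 5 genes with a region, had 14 and 7 calls in the WT pair, 7 and 9 in the Npm1c pair, 6 and 7 in the Flt3-ITD pair, and 11 and 9 in the DM pair, with Ly6g at 0. Their part in the Cxcr2 calls was not tested. Cxcr3, the receptor for interferon-induced chemokines on T cells, had its promoter region chrX:101733170-101734506 called in all 8 libraries and 1 further region in DM replicate 2.

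Homing chemokine receptors, 8 genes of which 7 had 70 regions, carried the largest number of DM gains: 9 regions (12.9%, against 6.93% of all regions) were gained against WT. Cxcr4 alone had 32 regions. Of these, 23 and 18 were called in the WT pair, 19 and 20 in the Npm1c pair, 9 and 12 in the Flt3-ITD pair, and 16 and 20 in the DM pair. The Flt3-ITD libraries lay lowest, the DM libraries overlapped the rest (exact permutation p = 0.114 for the Flt3-ITD allele, adjusted p = 0.398). A region of 3646 bp over the gene, chr1:128590103-128593748, was called in all 8 libraries, as were 6 others, up to 85267 bp from the start.

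The changes at Cxcr4 lay on different sides of the gene. On its downstream side, 36627 and 28162 bp from the start, the regions chr1:128555480-128555865 and chr1:128563931-128564343 were called in the 4 libraries without the Flt3-ITD allele alone. Between them, chr1:128560120-128561764 (1645 bp) was called in all but the DM libraries. Farther out, chr1:128551741-128553277 (1537 bp) was called in all but DM replicate 2. On the upstream side, chr1:128606764-128607141 and chr1:128607483-128607857, 14653 and 15371 bp from the start, were called in the 2 DM libraries alone. Further upstream, chr1:128622928-128623420 was called in WT, Npm1c and DM and missing from both Flt3-ITD libraries, and chr1:128681225-128681848, 89237 bp away, was missing with the allele in both backgrounds. Cxcl12, the ligand of Cxcr4, had 8 regions with 5 and 2, 2 and 3, 2 and 2, and 6 and 5 called in the order WT, Npm1c, Flt3-ITD and DM.

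**Figure D4:**
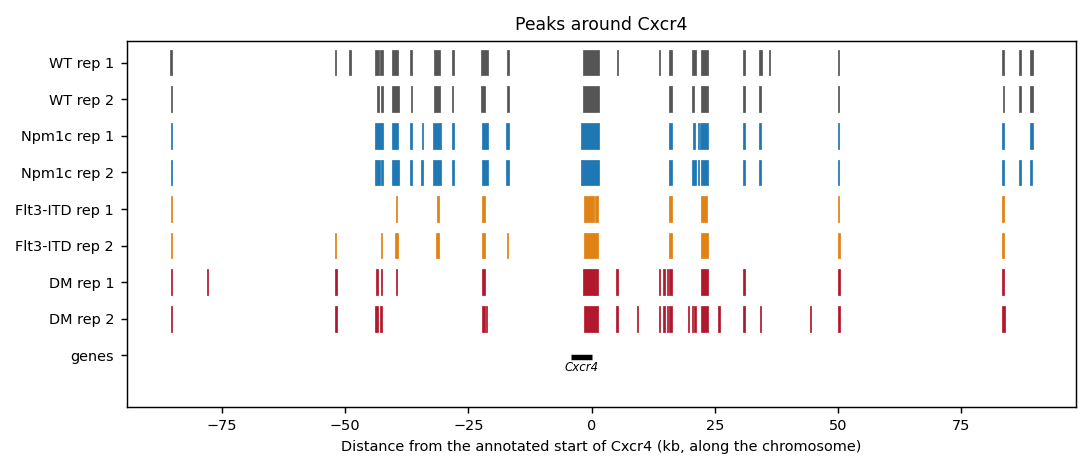
Peaks of the 8 libraries (rows, coloured by genotype) around Cxcr4, by distance in kb from its annotated start; the gene (black bar) is read from right to left. Left of the gene the WT and Npm1c rows hold more peaks than the Flt3-ITD and DM rows, and the pair of peaks 14653 and 15371 bp to the right of the start is in the 2 DM rows alone.

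Ccr4 and Ccr6, receptors of T cells and, for Ccr6, also of B and dendritic cells, were among the 4 of 48 genes (8.33%, against 6.63% of all genes) with more calls in both DM libraries than in any other library; the others were Il10ra and Il13ra1. The opposite held for 1 gene, Il22ra1 (2.08%, against 4.8%). Ccr4 had 5 and 4 of 8 regions called in the WT pair, 5 and 5 in the Npm1c pair, 3 and 4 in the Flt3-ITD pair, and 7 and 8 in the DM pair. Its 3 DM-only regions were chr9:114487501-114487967, chr9:114488411-114488783 and chr9:114506506-114506829, while its annotated promoter was called in no library. Ccr6 had 5 and 2 of 9 regions called in the WT pair, 3 and 1 in the Npm1c pair, 4 and 3 in the Flt3-ITD pair, and 6 and 8 in the DM pair. The regions chr17:8234505-8234891 and chr17:8238064-8238296, on either side of its first annotated start, were called in DM alone. Cxcr5, the Cxcl13 receptor of B cells, had 6 and 4, 3 and 3, 5 and 4, and 6 and 8 of 10 called. Its region chr9:44551125-44551502 was called in the 4 libraries with the Flt3-ITD allele alone and chr9:44514113-44514459 in DM alone.

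Calls for markers of B cells were highest in the DM pair, while those for T and NK cell markers in the DM pair overlapped the WT and Npm1c libraries. The B cell list, 4 of 5 genes with a region, had 10 and 5 calls in the WT pair, 7 and 9 in the Npm1c pair, 8 and 8 in the Flt3-ITD pair, and 13 and 24 in the DM pair, with Cd79a at 0. The T and NK list, 5 of 6 genes, had 7 and 5, 5 and 8, 2 and 2, and 7 and 12 calls, with Cd3g at 0. Their part in the receptor calls was not tested. Ccr9, the gut and thymus homing receptor, had 3 and 1, 3 and 4, 3 and 3, and 3 and 5 of 6 regions called. Ccr8 had 3 regions, of which chr9:120098628-120099098 was missing from the DM libraries alone, and the wider of the 2 regions of Ccr10, chr11:101173593-101174456, was called in all 8.

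Among the class I receptors of the beta common, gamma common and IL-13 types, 7 of 8 genes had 50 regions, and 5 (10%, against 16.2% of all regions) were lost in Flt3-ITD against WT. Il3ra, the IL-3 receptor chain of early progenitors and basophils, had 2 wide regions called in all 8 libraries, chr14:14345198-14350714 (5517 bp) and chr14:14351004-14353681 (2678 bp). Next to them chr14:14353857-14354886 was called in the 4 libraries without the Flt3-ITD allele alone. Of its 4 regions, 4 and 3 were called in the WT pair, 3 and 4 in the Npm1c pair, 2 and 2 in the Flt3-ITD pair, and 2 and 3 in the DM pair, so the groups met at 3 (exact permutation p = 0.0857, adjusted p = 0.33). Il5ra had 2 and 1, 3 and 3, 0 and 0, and 1 and 1 of 3 regions called. Of these, chr6:106748893-106749368 holds the promoter printed above and chr6:106725729-106726405 was called in Npm1c alone. Il9r had 8 and 5 of 9 regions called in the WT pair, 4 and 6 in the Npm1c pair, 2 and 3 in the Flt3-ITD pair, and 2 and 4 in the DM pair. Its promoter region chr11:32200144-32200717 was missing from the DM pair alone, and chr11:32156895-32157185, 43239 bp from the start, was called there alone.

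Mast cell and basophil markers, 3 of 4 genes with a region, had 12 and 6 calls in the WT pair, 7 and 9 in the Npm1c pair, 3 and 2 in the Flt3-ITD pair, and 1 and 2 in the DM pair. Fcer1a was at 0 in all libraries and Cpa3 at 0 in both DM libraries. The list total thus ranged from 6 to 12 without and from 1 to 3 with the Flt3-ITD allele. This fall came from Cpa3 and Ms4a2. Mcpt8 went the other way, its single region being called in WT replicate 1, Flt3-ITD replicate 1 and both DM libraries. The part of these markers in the calls at Ccr3, Il5ra, Il9r and Il1rl1 was not tested. Erythroid markers, 4 of 4 genes, ranged from 10 to 15 without and from 4 to 7 with the allele.

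Il4ra and Il21r lie side by side on chromosome 7 and went another way. Il4ra, the shared chain for IL-4 and IL-13, had 11 and 8 of 14 regions called in the WT pair, 9 and 8 in the Npm1c pair, 9 and 8 in the Flt3-ITD pair, and 10 and 10 in the DM pair. Il21r, the receptor of a T cell cytokine, had 10 and 6, 7 and 9, 10 and 11, and 11 and 12 of 14. For Il21r the groups with and without the Flt3-ITD allele met at 10 calls (mean 11 ± 0.816 SD with, 8 ± 1.83 without, n = 4 each, exact permutation p = 0.0571, adjusted p = 0.268), and the difference was 3.00 as deposited and 6.25 at equal length. The region chr7:125626652-125627053 inside Il21r was called in the 4 libraries with the allele alone. At Il4ra, chr7:125522877-125523510, 29078 bp before the start, was called in the 4 libraries without the allele alone, and chr7:125577321-125578139 in all but the DM libraries. Another Il4ra region, chr7:125541886-125542250, was called in DM alone. Il13ra1, which pairs with Il4ra, had 2 and 1, 1 and 2, 1 and 1, and 3 and 4 of 4 called, with chrX:36108526-36108973 called in DM alone. Il15ra, which presents IL-15, had both of its regions called in all 8 libraries.

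The gp130 and IL-12 type genes, 7 of 8 with 35 regions, lost 4 regions (11.4%, against 6.26% of all regions) in Npm1c against WT. Of these, 3 were at Il6ra and 1 at Il12rb1. The group lost 5 (14.3%, against 16.2%) in Flt3-ITD against WT, and 3 (8.57%, against 10.6%) were gained in DM against Flt3-ITD. Il12rb2, the IL-12 receptor chain of T and NK cells, had 6 and 5 of 8 regions called in the WT pair, 6 and 6 in the Npm1c pair, 2 and 2 in the Flt3-ITD pair, and 3 and 2 in the DM pair. The groups did not overlap (mean 5.75 ± 0.5 SD without and 2.25 ± 0.5 with the allele, n = 4 each, exact permutation p = 0.0286, adjusted p = 0.154), and at equal length the difference was -2.5 where it was -3.5 as deposited. Its promoter region chr6:67375624-67376586 was called in all 8 libraries. The 3 regions absent with the allele lay inside the gene, at chr6:67291118-67293145 (2028 bp), chr6:67296093-67296500 and chr6:67337459-67338439. Just before the start, chr6:67378006-67378419 was called in DM alone. The neighbour Il23r had 2 and 1, 1 and 2, 0 and 0, and 0 and 4 of 5 regions called, and chr6:67510750-67511128 was absent with the allele.

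**Figure D5:**
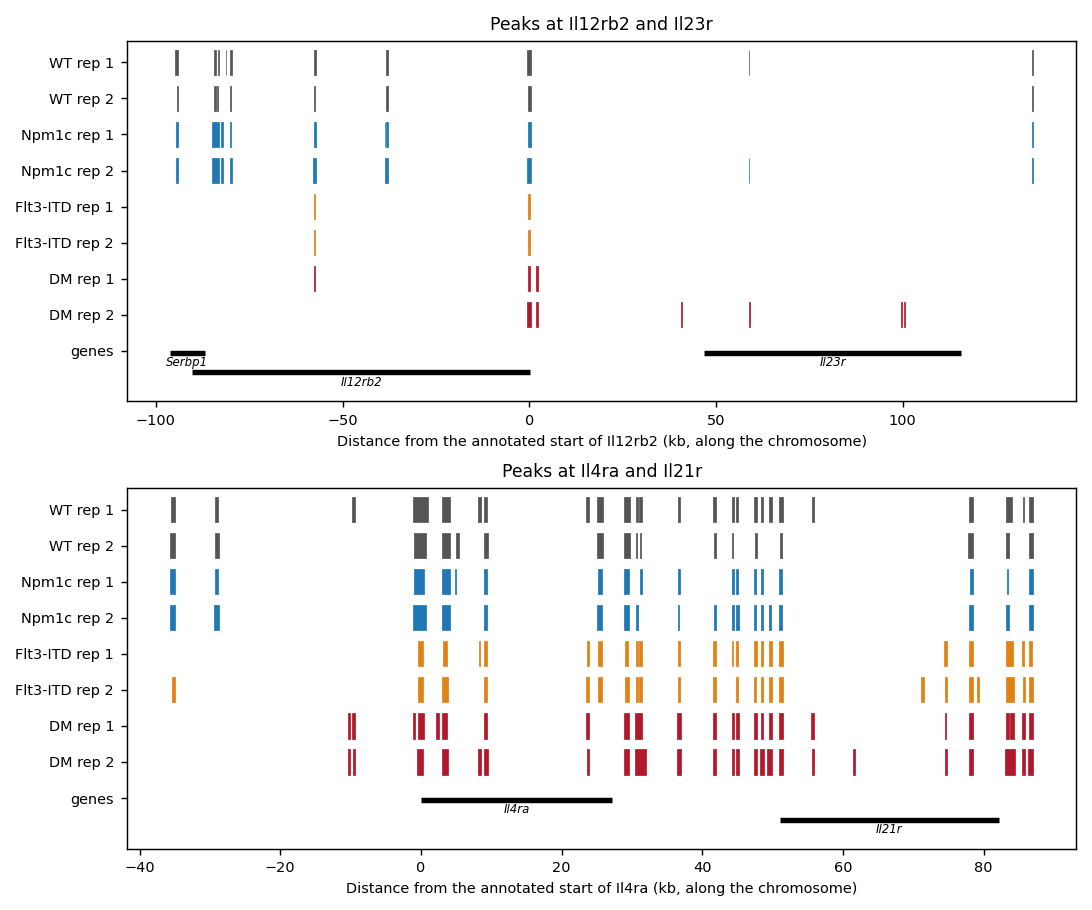
Peaks of the 8 libraries (rows, coloured by genotype) at Il12rb2 and Il23r (top) and at Il4ra and Il21r (bottom), by distance in kb from the annotated starts of Il12rb2 and Il4ra; black bars are genes. In the top panel the Flt3-ITD and DM rows lack peaks in the far part of Il12rb2, and in the bottom panel all 8 rows are densely listed.

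Il6ra, the IL-6 receptor chain, had 8 and 7 of 9 regions called in the WT pair, 3 and 3 in the Npm1c pair, 4 and 5 in the Flt3-ITD pair, and 7 and 7 in the DM pair. The single mutants lay below both WT and DM, without overlap. Its promoter region chr3:89912123-89913748 and 2 others were called in all 8 libraries. Toward the far end of the gene, chr3:89869554-89869958 was called in WT and DM alone, and chr3:89870863-89871796 in all but the Npm1c libraries. Il12rb1, which serves IL-12 and IL-23, had 4 and 3, 2 and 2, 3 and 4, and 4 and 5 of 5 regions called, and chr8:70808251-70808774, over one end of the gene, was called in DM alone. Il31ra had 4 and 4, 3 and 5, 2 and 4, and 2 and 2 of 5, and chr13:112540499-112542104 (1606 bp) was missing from the DM libraries alone. Il27ra had 1 of 2 regions and Il11ra1 its single region called in all 8.

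In the class II family of the IL-10 type, 6 genes had 45 regions, and 10 (22.2%, against 20.9% of all regions) were lost in DM against WT. Il20rb, a chain of the receptors for IL-20 and IL-24, gave the largest difference in mean calls between libraries with and without an allele among the 48 genes in the lists as deposited; at equal length Il21r differed by more. Here 10 and 7 of 11 regions were called in the WT pair, 7 and 10 in the Npm1c pair, 1 and 3 in the Flt3-ITD pair, and 2 and 2 in the DM pair. The mean was 8.50 ± 1.73 (SD) without and 2 ± 0.816 with the allele (n = 4 each, exact permutation p = 0.0286, adjusted p = 0.154), and at equal length the difference was -3.00 against -6.50 as deposited. The 3 regions absent with the allele, chr9:100382526-100382851, chr9:100395689-100396084 and chr9:100400321-100400777, lay 85924 to 103785 bp from its start, and its promoter was called in no library. The region chr9:100445929-100446814, 40102 bp from the start, was called in all 8. Il20ra, the partner chain, had 9 and 6, 6 and 6, 5 and 6, and 5 and 6 of 10 regions called, its promoter region chr10:19712283-19712805 was called in all 8, and chr10:19724147-19724882 was absent with the allele.

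Il10ra, the IL-10 receptor chain of monocytes and lymphocytes, moved the other way, with 4 and 2 of 9 regions called in the WT pair, 1 and 1 in the Npm1c pair, 4 and 4 in the Flt3-ITD pair, and 6 and 8 in the DM pair. The groups with and without the Flt3-ITD allele met at 4 (exact permutation p = 0.0857, adjusted p = 0.33). The gene-end region chr9:45267954-45269381 (1428 bp) was called in all but the Npm1c libraries, and chr9:45266164-45266451 in DM alone. Monocyte and macrophage markers, 4 of 4 genes with a region, had 38 and 22 calls in the WT pair, 15 and 13 in the Npm1c pair, 25 and 27 in the Flt3-ITD pair, and 36 and 50 in the DM pair. In this total, as at Il10ra, Npm1c was lowest and DM replicate 2 highest. By gene, Ly86, with 31 of the 56 regions, and Csf1r were lowest in Npm1c. Adgre1 and Mrc1 were not, each with 3 calls in both Npm1c libraries, WT replicate 2 and both Flt3-ITD libraries. The part of these markers in the Il10ra calls was not tested. Il10rb, the shared chain, had 5 to 9 of 9 regions called in every library, 5 of them in all 8, the widest over the gene being chr16:91405493-91407287 (1795 bp). Il22ra1 had 4 and 1, 1 and 1, 1 and 1, and 0 and 0 of 4 called, and its region chr4:135739592-135740139 was missing from DM alone. Il22ra2, a soluble decoy, had 1 region absent with the allele (chr10:19672095-19672480) and 1 called in DM alone (chr10:19668949-19669305).

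The 10 IL-1 type genes had 67 regions, of which 12 (17.9%, against 25.3% of all regions) were called in all 8 libraries. Of these genes, 6 form a run on chromosome 1 with 55 regions: 42 and 28 were called in the WT pair, 24 and 31 in the Npm1c pair, 20 and 23 in the Flt3-ITD pair, and 29 and 39 in the DM pair. Neighbours in that run differed in pattern. Il1rl2 had 9 and 9 of 12 regions called in the WT pair, 7 and 9 in the Npm1c pair, 2 and 5 in the Flt3-ITD pair, and 5 and 7 in the DM pair (exact permutation p = 0.0571, adjusted p = 0.268, with the groups meeting at 7). Its region chr1:40359543-40359985 was absent with the Flt3-ITD allele, and chr1:40354561-40354865 and chr1:40380967-40381551 were called in DM alone. Il1rl1 had 5 and 2, 3 and 4, 3 and 2, and 3 and 5 of 9. Its promoter region chr1:40428964-40429793 was missing from DM alone, and just beyond it chr1:40429897-40430947 (1051 bp) was absent from all 4 libraries with the allele.

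Il18r1, the next gene, had 6 and 5 of 7 regions called in the WT pair, 1 and 4 in the Npm1c pair, 5 and 5 in the Flt3-ITD pair, and 5 and 7 in the DM pair, and its promoter region chr1:40465440-40466270 was missing from Npm1c alone. Il18rap, its partner, had 2 and 0, 1 and 1, 1 and 0, and 2 and 3 of 4, with chr1:40540854-40541234 called in DM alone. Il1r1, the signalling IL-1 receptor, had 12 and 8 of 14 regions called in the WT pair, 9 and 9 in the Npm1c pair, 5 and 7 in the Flt3-ITD pair, and 7 and 9 in the DM pair, with 5 called in all 8. The decoy receptor Il1r2 had 8 and 4, 3 and 4, 4 and 4, and 7 and 8 of 9, with its promoter region chr1:40085606-40086233 called in all 8. On chromosome 16, Il1rap, the accessory chain of IL-1, IL-33 and IL-36 receptors, had 6 and 4 of 7 regions called in the WT pair, 7 and 7 in the Npm1c pair, 2 and 3 in the Flt3-ITD pair, and 5 and 5 in the DM pair. Its promoter region chr16:26580450-26582886 (2437 bp) was called in all 8, chr16:26596983-26597642 was absent with the allele, and chr16:26598623-26598857 was called in Npm1c alone. The brain-expressed Il1rapl1 had 1 region and Il1rapl2 had 2, the latter each called in 1 Npm1c library. Il1rn had 2 and 0, 1 and 1, 0 and 0, and 1 and 1 of 2 regions called.

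IL-17 type receptors were the most evenly called: 4 of 5 genes had 27 regions, and 13 (48.1%, against 25.3% of all regions) were called in all 8 libraries. Il17ra, the shared chain, held 9 of these 13, with 12 and 11 of 14 regions called in the WT pair, 10 and 10 in the Npm1c pair, 9 and 9 in the Flt3-ITD pair, and 9 and 13 in the DM pair. Its widest region, chr6:120462909-120464897 (1989 bp), lay over one gene end. Il17rd, known also as a brake on fibroblast growth factor signalling, had 8 and 7 of 8 called in the WT pair, 7 and 8 in the Npm1c pair, 4 and 5 in the Flt3-ITD pair, and 5 and 5 in the DM pair. Its groups did not overlap (mean 7.50 ± 0.577 SD without and 4.75 ± 0.5 with the allele, n = 4 each, exact permutation p = 0.0286, adjusted p = 0.154), but at equal length the difference was -0.25 where it was -2.75 as deposited. The promoter region of Il17rd, chr14:27038766-27039345, was called in all 8. Il17rc and Il17re, neighbours on chromosome 6, had 1 region each called in all 8. The promoter window of Il17rb was also overlapped by a peak in all 8, in a region that went to another gene. Il2rg, the gamma common chain, had its promoter region chrX:101267981-101268566 called in all 8 and 3 smaller ones called in 4 libraries or fewer.

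Regions called in both DM libraries and in none of the other 6 numbered 21 in 15 receptor genes (6.12%, against 5.13% of all regions). None of them overlapped a promoter window, 6 lay inside genes and 9 more than 10 kb away, and their median width was 365 bp. The reverse pattern, missing from the DM pair alone, was found in 8 regions of 8 genes (2.33%, against 2.78%), of which 2 overlapped a promoter window (Il1rl1 and Il9r), with a median width of 824 bp. Leaving out a library can only keep or raise both counts. Without WT replicate 1 the first count was 33 and without DM replicate 1 it was 50. The second was 13 when DM replicate 1 was left out and 19 when Flt3-ITD replicate 1 was. The shares over all regions in these settings are not given here. In the full set, 29 receptor regions (8.45%, against 6.73% of all regions) were called in DM replicate 2 alone. Fisher's exact test (2 against 6 libraries, two-sided) gave p = 0.0357 for such regions, with a lowest adjusted p of 0.452 over all regions.

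Genes of the same pathways outside the member set were counted from 2 lists. The 23 shared chains and related receptors had 185 regions, of which 15 (8.11%, against 16.2% of all regions) were lost in Flt3-ITD against WT and 17 (9.19%, against 6.93%) were gained in DM against WT. Of these genes, 1 was lower and 0 were higher with the Flt3-ITD allele at an unadjusted p under 0.05, and 0 passed after adjustment. Over all genes 17.8% were lower and 0.74% higher. Csf2rb, the beta common chain that serves Il3ra and Il5ra, had 3 and 1 of 4 regions called in the WT pair, 1 and 1 in the Npm1c pair, 1 and 1 in the Flt3-ITD pair, and 3 and 4 in the DM pair, an order unlike that of either alpha chain. The gp130 gene Il6st had 7 and 4, 4 and 5, 4 and 6, and 6 and 9 of 9 called. The 24 ligand genes had 153 regions, with 24 (15.7%, against 16.2%) lost in Flt3-ITD against WT and 14 (9.15%, against 6.93%) gained in DM against WT. Of the 24 genes, 4 were lower and 0 higher with the Flt3-ITD allele at an unadjusted p under 0.05, beside the same 17.8% and 0.74% of all genes. Cxcl1, a ligand of Cxcr2, had 3 and 2 of 3 called in WT and 3 and 3 in Npm1c, and none in Flt3-ITD or DM.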

How the data were processed

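Groups were taken from the genotype labels and replicate numbers from the sample titles. Per the submitters' processing notes, reads were aligned with Bowtie2 and peaks called with MACS2 on mm10; versions, thresholds, Tn5 shifting and duplicate removal are not given in the sources used here. Each deposited list, 1 per library, holds 3 columns (chromosome, start, end), so their values are positions with no score, and other measures of peak strength were not used. Depth is unknown. A short list can come from fewer reads or less open chromatin.

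Peaks on chromosomes 1 to 19 and X were merged where they shared 1 bp, and a region was called in a library with a peak in it. Each region went to the gene holding its midpoint, otherwise to the nearest within 100 kb (94.8% of regions). Per-region tests were Fisher's exact and per-gene tests exact permutations of called regions, adjusted by Benjamini-Hochberg over all regions or genes, and both were tested on simulated data. Genes and promoters came from RefSeq tables of GRCm38.p6, and 43 of 52 members had a promoter. Python 3.11.15, numpy 2.4.6, pandas 2.3.3, scipy 1.17.1 and matplotlib 3.10.9 were used.

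The members and lists were chosen with earlier results of these data known. Genes named with values per library were 10 chosen by role, those with a region split by an allele, and those with at least 2 gained or lost regions in a comparison, up to 30 of the 32 that qualified; 1 of these is not reported here, and other members are given more briefly, and of regions those split by an allele, particular to or missing from DM, or widest over a gene in each role group. For each role group only some comparisons are given, and these differ from group to group. Lists of equal length kept the widest 43794 peaks of each library. Other alternatives were a call needing peaks over 50% of the region, a gene distance of 50 kb, a replicate block, leaving out each library, and regions inside genes alone.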

Additional observations from a re-analysis of the deposited data

Results flagged for a closer look

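Within each set of 4 libraries with or without an allele, 19 of 123 sets with a range above 0 held a library far from the other 3 in a gene's number of called regions; the usual chance rate of about 1 in 20 is for continuous values and was not set against these small counts with ties, where a difference of 1 region can be enough, and sets of one gene share libraries. WT replicate 1 stood high at Ccr1 (18), Il20ra (9), Il1r2 (8), Il18r1 (6) and Il13ra1 (2). WT replicate 2 stood low at Il10ra (2), Il12rb2 (5) and Ccr4 (4). Npm1c replicate 1 stood low at Cxcr2 (2) and Il1rl2 (7). Flt3-ITD replicate 1 stood low at Il17rd (4) and Il31ra (2), and Flt3-ITD replicate 2 high at Il31ra (4). DM replicate 1 stood low at Il1r1 (7) and Il20ra (5) and high at Il12rb2 (3), and DM replicate 2 high at Il3ra (3), Il17ra (13) and Il18r1 (7).

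At 3 genes an allele went with opposite changes beside the WT form and beside the mutant form of the other gene, in every library of the groups compared. For Il6ra the change in mean called regions with the Npm1c allele differed by 7 between the 2 backgrounds, and likewise by 7 for the Flt3-ITD allele. The Npm1c differences were 5 for Il10ra and 4.5 for Cxcr5. With 2 libraries per genotype these differences were not tested.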

How the results depend on the processing

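No receptor gene passed the adjusted per-gene test under any alternative run, for either allele, and neither did any other gene. With a lowest exact permutation p of 0.0286 before adjustment over all genes, this test can hardly be passed. Its outcome is therefore no sign of stability. A replicate block left 36 relabellings and a lowest exact permutation p of 0.0556, so no gene could pass. Same-numbered libraries did not deviate together (correlations from -0.0399 to 0.0387), so the numbers were not taken as pairs. Scored by bases covered by peaks, 15 receptor genes had an unadjusted p under 0.05 for the Flt3-ITD allele, 14 lower and 1 higher, with a lowest adjusted p of 0.0696; that is 31.2% of 48, against 41.1% of 16617 genes. Of 720 values of named genes under the alternatives, 55 had the opposite sign, in 27 pairs of gene and allele, none past the test.

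Lists of equal length gave 13 gained in Npm1c against WT, 13 gained and 20 lost in Flt3-ITD against WT, 42 gained and 37 lost in DM against WT, and 25 gained and 16 lost in DM against Flt3-ITD. With the Flt3-ITD allele they gave 9 split regions one way and 12 the other, and 2 with the Npm1c allele. A call needing peaks over 50% of the region gave 4 gained in Flt3-ITD against WT, 5 lost in DM against Flt3-ITD and 5 missing from DM alone. Regions inside genes alone, an alternative chosen after seeing the data that by construction keeps fewer regions, gave 1 gained and 19 lost in Flt3-ITD against WT, 7 gained and 23 lost in DM against WT, 22 gained and 24 lost in DM against Npm1c, and 17 gained and 5 lost in DM against Flt3-ITD. The same regions gave 1 called with and 8 called without the Flt3-ITD allele, 6 called in DM alone and 5 missing from DM alone. Shares over all regions under the 50% rule or inside genes alone are not given here.

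Each library of the 2 genotypes compared was left out in turn, since leaving out any other library does not change the count. Npm1c against WT then gave 7 to 25 gained and 14 to 59 lost. Flt3-ITD against WT gave 2 to 25 and 52 to 99, and DM against WT 23 to 71 and 55 to 72. DM against Npm1c gave 57 to 91 and 57 to 68, and DM against Flt3-ITD 53 to 96 and 9 to 23. Counts that use all 8 libraries were 2 to 9 and 23 to 34 split by the Flt3-ITD allele and 0 to 4 with the Npm1c allele. In DM alone there were 21 to 50, and 8 to 19 were missing from DM alone. The shares over all regions under these settings are not given here. By construction, leaving out a library can only keep or raise a count. Apart from this and the regions inside genes, the causes of these shifts were not tested. Depth is unknown, so a region without a peak is not shown to be closed.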

Other observations

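A few relatives and ligands of the members, chosen after their values were seen, are given here. Ackr1, an atypical chemokine receptor of erythroid cells, had 1 and 3 of 6 regions called in the WT pair, 6 and 5 in the Npm1c pair, 0 and 1 in the Flt3-ITD pair, and 0 and 0 in the DM pair. Cmklr1, the chemerin receptor of monocytes and dendritic cells, had 11 and 2 of 13 called in the WT pair, 3 and 2 in the Npm1c pair, 7 and 9 in the Flt3-ITD pair, and 10 and 12 in the DM pair. Among ligand genes, Ccl6 had 2 and 0, 0 and 1, 2 and 1, and 6 and 5 of 7 called, and Il12a 17 and 12, 12 and 14, 6 and 8, and 9 and 11 of 19. Il5 had both of its regions called in all 8 libraries. Of the 14 regions gained over WT in DM among ligand genes, 12 were called in DM alone. Over all regions this held for 5308 of 7164.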
